A study of Mus musculus with 12 samples.

Results

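The proteasome is the complex that degrades ubiquitin-tagged proteins, and 31 genes encode its constitutive subunits as counted here. They are the 7 genes of the alpha ring (Psma1 to Psma7), the 7 genes of the constitutive beta ring (Psmb1 to Psmb7), the 6 ATPases of the regulatory base (Psmc1 to Psmc6), and 11 non-ATPase subunits of base and lid. Those last are Psmd1, Psmd2 and Psmd4 of the base and Psmd3, Psmd6, Psmd7, Psmd8, Psmd11, Psmd12, Psmd13 and Psmd14 of the lid. The members were taken by gene symbol, and all 31 were found among the 21959 genes of the expression table. Their mRNA was measured by RNA sequencing in C8-D1A, an astrocyte line from mouse brain, after 24 h in 4 culture conditions with 3 libraries each. In the first the incubator held 15% CO2, in the second 20 mM lactic acid was added to the medium, and in the third the sodium bicarbonate of the medium was lowered to 0.2 g/L (low NaHCO3). Control cells were kept at 5% CO2. All 4 groups are the same line, and the pH that each medium reached is not stated. The gas is misspelled in the descriptions of replicates 2 and 3 of the 15% CO2 and control groups, so these groups were taken from the treatment labels.

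A proteasome is built from a barrel-shaped core and a regulatory particle that caps it. In the core, the outer alpha rings form the gate and the inner beta rings carry the proteolytic sites. In the regulatory particle, the base unfolds the substrate and threads it into the core, while the lid removes the ubiquitin chain. The subunits are needed in fixed proportion in the finished complex. The transcription factor NRF1, encoded by Nfe2l1, is known to raise transcription of most subunit genes together when proteasome activity is too low, through antioxidant response elements in their promoters.

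Values are deposited TPM, shares of a library scaled for transcript length, so levels can be set side by side between genes as well as between libraries. Control library 1 stood apart from the other 11. All 6 neuronal marker genes were highest in it, with a summed 1791 TPM against 0.175 to 0.772 TPM in the others, and so were all markers of oligodendrocytes (5 genes), microglia (6), endothelium (4) and red blood cells (4). Its rank correlation with the other libraries was 0.817 to 0.881, against 0.929 to 0.998 among those 11. Counts of calls are therefore given with all 12 libraries and again without control 1, and single changes without it where the call differs or the result turns on it. Of the 9 astrocyte markers, 7 were also highest in control 1, and in each of the 11 other libraries 4 or 5 reached 1 TPM. In those 11 libraries Gfap (0.126 to 1.19 TPM) and Slc1a3 (0 to 0.021 TPM) were near absent, while Vim (1327 to 2678 TPM) and Glul (43.7 to 74.9 TPM) were abundant. RNA from the whole well was sequenced, so fewer cells of a kind and less RNA per cell cannot be told apart. The labels do not say whether replicates came from separate cultures, so the p-values measure only the spread between these libraries.

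All 31 subunit genes were expressed in every library, and all passed the filter for testing, 1 TPM or more in at least 3 libraries. Levels ran from 49.2 TPM, for the alpha subunit Psma2 in lactic acid library 3, to 598 TPM, for the lid subunit Psmd8 in low NaHCO3 library 3. The ATPase Psmc1 had the highest mean of the 31 in 15% CO2 and lactic acid, and in control with all 3 libraries (489 TPM, against 482 TPM for Psma6), while over controls 2 and 3 alone Psma6 was higher (538 TPM, against 523 TPM for Psmc1), and Psma2 had the lowest mean in all 4 groups. The summed TPM of the 31 genes was 5589 ± 581 in 15% CO2, 5842 ± 949.6 in lactic acid and 6536 ± 92.6 in low NaHCO3, against 6767 ± 1051 in control (SD, n = 3 each). By library the sums were 5524, 6199 and 5043 in 15% CO2, 6420.3, 6360.4 and 4746 in lactic acid and 6569.6, 6431 and 6607 in low NaHCO3, against 5558, 7457 and 7286 in control. Controls 2 and 3 thus had the highest sums of the 12, and control 1 lay below them, within the range of the treated libraries. As a share of all TPM the subunits made up 0.559% in 15% CO2, 0.584% in lactic acid, 0.654% in low NaHCO3 and 0.677% in control.

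In single libraries the subunits were low together. Control 1 was the lowest of its group for 31 of 31 members, lactic acid 3 was the lowest of its group for 31 of 31, and 15% CO2 3 was the lowest of its group for 26 of 31. The same count was not made over all genes tested, so these counts do not set the subunits apart from other genes. Mitochondrially encoded mRNA took 24.8% of the TPM in 15% CO2 3 and 27.8% in lactic acid 3, against 15.6% to 20.4% in the other libraries of those groups. In low NaHCO3 it took 10.4% to 10.9%, and in control 15.6% to 19.7%, with the highest share in control 1. The part of these shares and of the brain marker RNA in the subunit levels was not tested. With TPM rescaled to leave out mitochondrially encoded mRNA, the 31 genes summed to 6936, 7345 and 6706 in 15% CO2 libraries 1 to 3, 7637, 7611 and 6576 in lactic acid and 7333, 7178 and 7412 in low NaHCO3, against 6923, 8838 and 8706 in control. On that scale all 9 treated libraries lay below controls 2 and 3, and control 1 lay among the treated libraries.

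**Figure D1:**
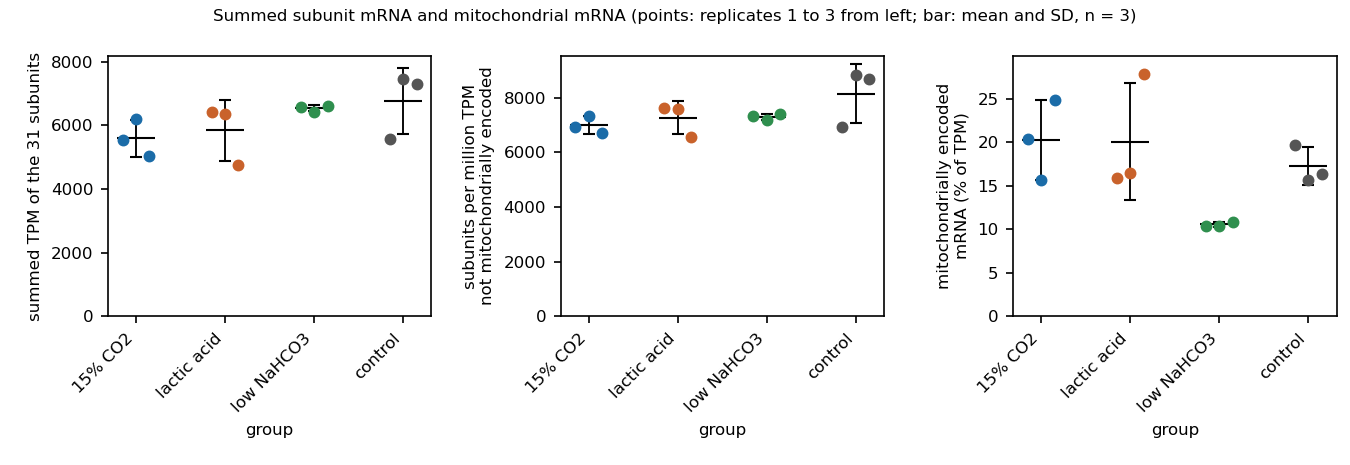
Summed TPM of the 31 subunits, their sum rescaled to leave out mitochondrially encoded mRNA, and the mitochondrially encoded share in percent of TPM, by group. Points are libraries 1 to 3 from left to right and bars give the mean and SD; controls 2 and 3 have the highest subunit sums (7457 and 7286 TPM), and 15% CO2 3 and lactic acid 3 have the highest mitochondrial shares (24.8% and 27.8%).

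**Figure D2:**
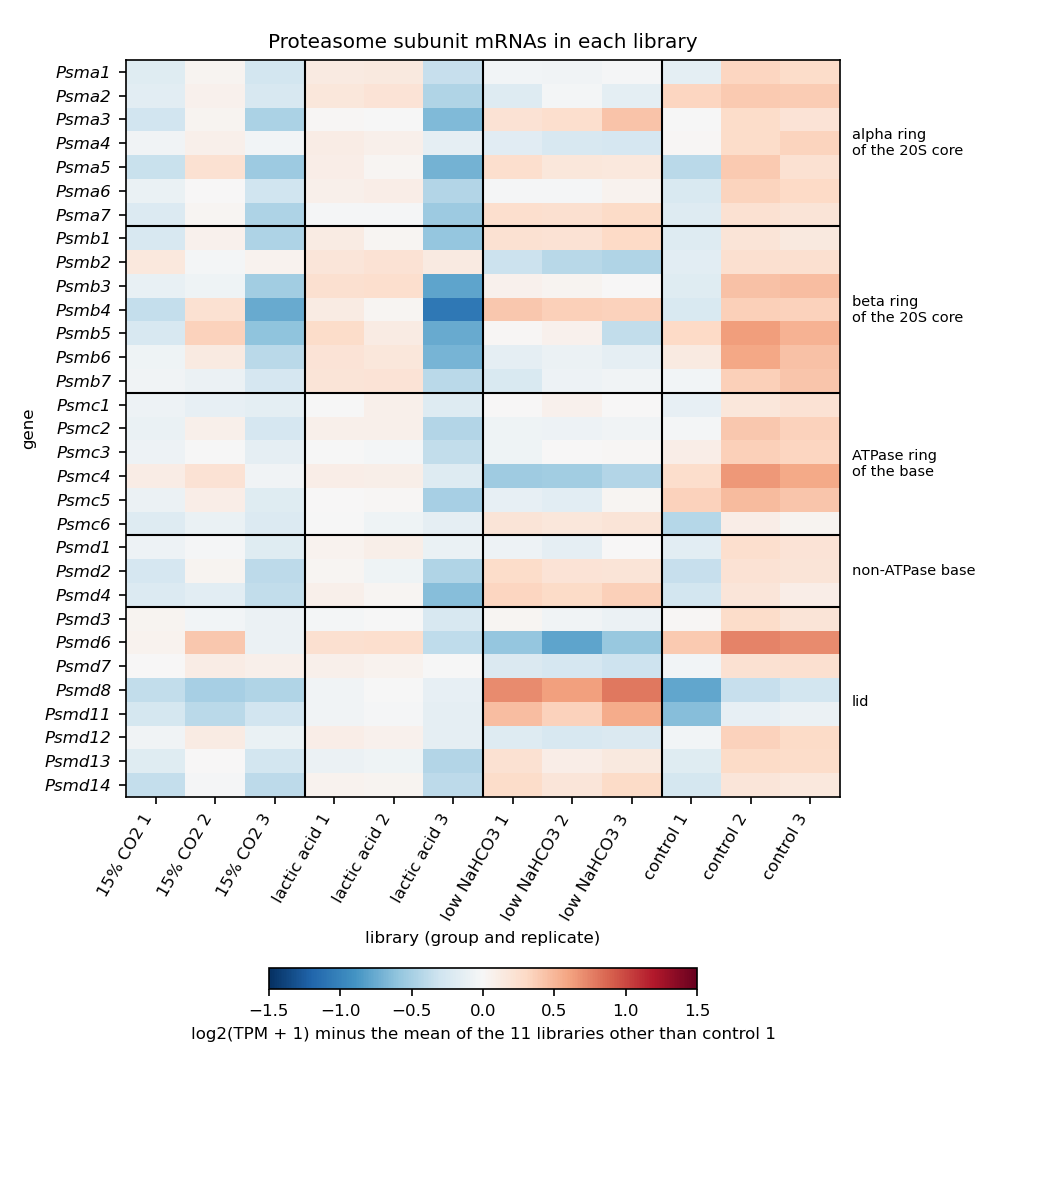
Level of each of the 31 subunit genes in each library, as the log2 difference from that gene's mean over the 11 libraries other than control 1, ordered by place in the complex. Psmd8 and Psmd11 stand out as high and Psmd6, Psmc4 and Psmb2 as low in the 3 low NaHCO3 libraries, and control 1 is below controls 2 and 3 in every row.

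Lowering bicarbonate changed the subunit genes in opposite directions. Against control, 2 of the 31 rose and 8 fell at an adjusted p under 0.05, by limma on log2(TPM + 1) with Benjamini-Hochberg adjustment over 12326 genes. The lid subunits Psmd8 and Psmd11 rose, and Psma2, Psma4, Psmb2, Psmc4, Psmc5, Psmd6, Psmd7 and Psmd12 fell. Of all genes tested, 19.8% were called higher and 35.0% lower, so the members' share called was not above the background in either direction. Without control 1 the counts were 2 higher and 14 lower, against a background of 22.7% and 40.9%. All 10 members called with 12 libraries were called without control 1 too, in the same directions, and the second fit adds Psmb6, Psmb7, Psmc2, Psmc3, Psmd1 and Psmd3 as lower. The median change of the 31 was -0.18 (log2), beside -0.20 over all genes, and without control 1 it was -0.31 beside -0.17. Median-of-ratios scaling, which moved the all-gene median to -0.04, gave 5 members higher and 6 lower, with a member median of -0.01 and a background of 28.1% and 27.3%. Without control 1, 15% CO2 3 and lactic acid 3 together, 3 members rose and 19 fell, against a background of 26.2% and 44.8%.

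Raising CO2 to 15% gave no call among the 31 with all 12 libraries by limma, while 7 had an unadjusted p under 0.05. The background was 1.28% of genes called higher and 0.0649% called lower. Of the 31 log2 changes 30 were below 0, with a median of -0.28 beside 0.01 over all genes. Without control 1, 7 members fell and none rose, against a background of 5.82% higher and 1.56% lower. Those 7 were Psma4, Psmc1, Psmc3, Psmc4, Psmd1, Psmd12 and Psmd13, with log2 changes of -0.52 (Psmc4) to -0.31 (Psma4 and Psmc1), and all 31 changes were then below 0 (median -0.43, beside 0.03 over all genes). These calls rest on 2 control libraries, and leaving out control 2 or control 3 as well gave no call, with 11 and 17 members at an unadjusted p under 0.05. The control group is then a single library, assumed to vary like the other groups, and the member medians were -0.41 and -0.44, close to that with controls 2 and 3. They also depend on lactic acid 3, which shares the fit: leaving it out with control 1 gave 25 members lower and none higher in 15% CO2, against a background of 6.41% lower and 9.77% higher. Without control 1, 15% CO2 3 and lactic acid 3 together, 23 members fell and none rose, against a background of 8.75% higher and 4.52% lower.

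Lactic acid gave 2 members lower and none higher with all 12 libraries, both of them ATPases, Psmc4 and Psmc5. The background was 2.47% of genes higher and 1.52% lower, and 8 members had an unadjusted p under 0.05. Both calls were near the threshold, and neither was made when any single library other than control 1 was left out. Without control 1, 9 members fell and none rose, against a background of 9.05% higher and 7.08% lower. They were Psma4, Psmc2, Psmc3, Psmc4, Psmc5, Psmd3, Psmd6, Psmd12 and Psmd13, with log2 changes of -0.70 (Psmd6) to -0.29 (Psma4). Leaving out control 2 along with control 1 gave no call, with 9 members at an unadjusted p under 0.05, and leaving out control 3 with control 1 gave 1 call. The lone control is again assumed to vary like the other groups, and the member medians were -0.39 and -0.38. Without control 1, 15% CO2 3 and lactic acid 3 together, 13 members fell and 1 rose, against a background of 10.7% higher and 8.02% lower. The median of the 31 was -0.25 beside -0.04 over all genes, and without control 1 it was -0.39 beside a value that rounds to 0.

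**Figure D3:**
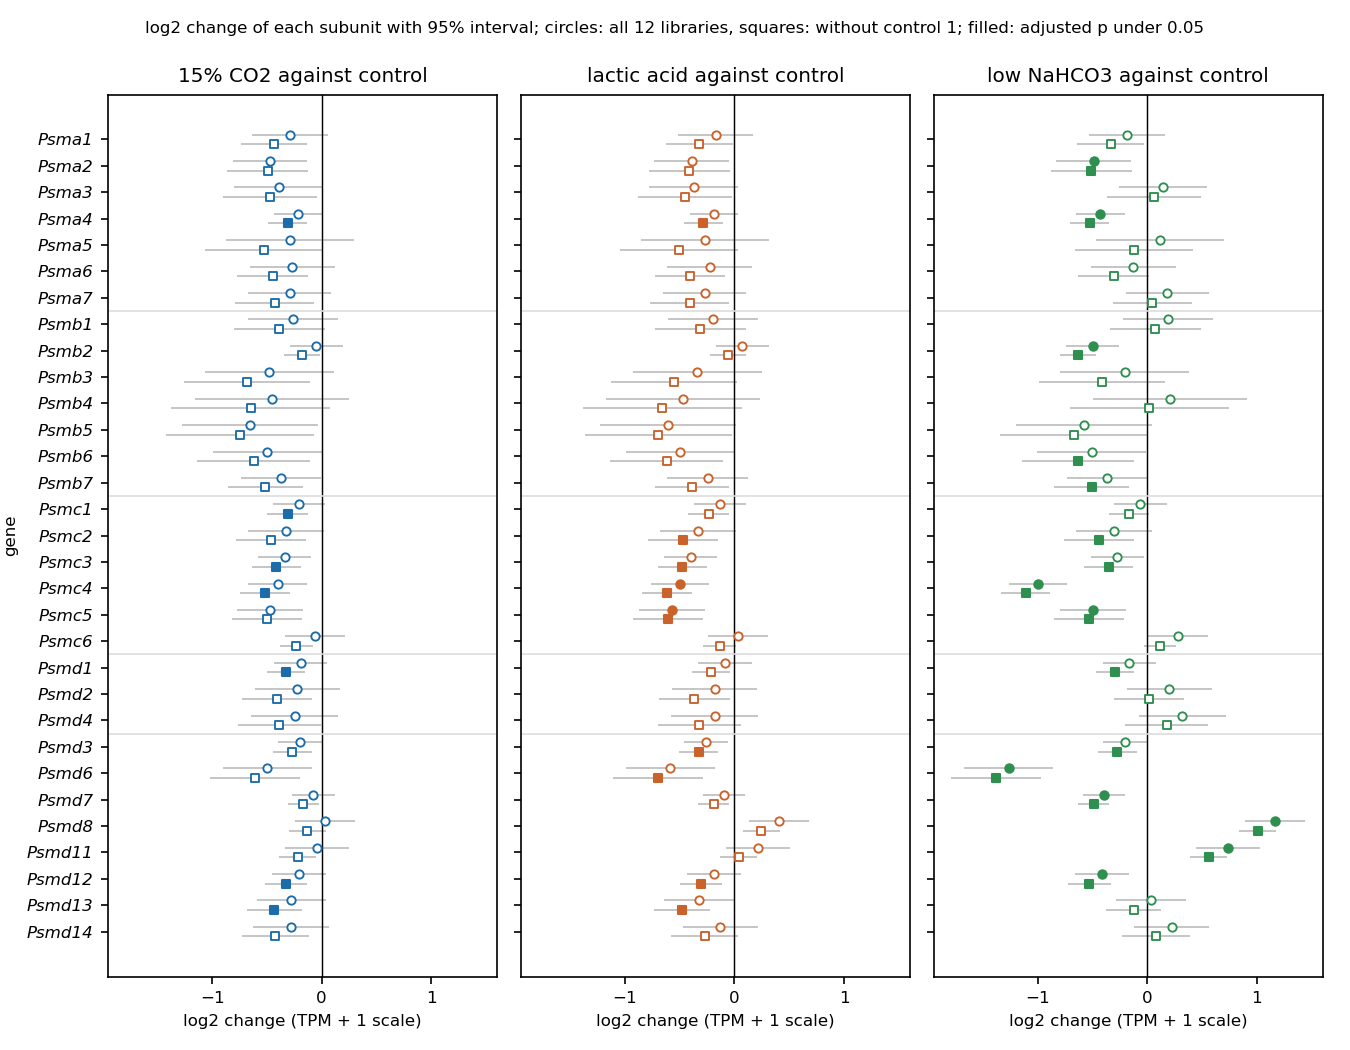
Log2 change of each subunit gene against control in 15% CO2, lactic acid and low NaHCO3, on the log2(TPM + 1) scale with 95% intervals. Circles use all 12 libraries and squares leave out control 1, filled where the adjusted p is under 0.05; in low NaHCO3 the changes run from -1.27 (Psmd6) to 1.17 (Psmd8), a wider spread than in 15% CO2 or lactic acid.

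The 3 comparisons share the control libraries, so their members' values are set side by side rather than correlated. The SD of the 31 log2 changes was 0.16 in 15% CO2, 0.23 in lactic acid and 0.47 in low NaHCO3, beside 0.36, 0.39 and 0.81 over all genes tested. In each comparison the SD of the subunits was thus below that of all genes tested, with all 12 libraries. All genes tested include many of much lower level, and genes of like level were not compared. By place in the complex, the median changes in 15% CO2 were -0.29 in the alpha ring, -0.46 in the beta ring, -0.33 among the ATPases, -0.22 in the non-ATPase base and -0.20 in the lid. In lactic acid they were -0.27, -0.34, -0.37, -0.18 and -0.16 in the same order. In low NaHCO3 they were -0.13, -0.36, -0.29, 0.20 and -0.08. Without control 1 they were -0.45, -0.62, -0.44, -0.39 and -0.30 in 15% CO2 and -0.41, -0.55, -0.475, -0.32 and -0.29 in lactic acid. In low NaHCO3 they were then -0.31, -0.51, -0.40, 0.02 and -0.20, so that of the non-ATPase base dropped from 0.20 to 0.02. No difference between these groups of subunits was tested.

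The alpha ring, whose subunits form the gate of the core and the surface on which the regulatory particle docks, had 2 of 7 members called lower in low NaHCO3 with all 12 libraries, Psma2 and Psma4, beside 35.0% of all genes. Psma2 had 60.6, 70.9 and 57.3 TPM in 15% CO2, 76.3, 77.8 and 49.2 in lactic acid and 59.0, 66.0 and 60.9 in low NaHCO3, against 84.5, 89.2 and 88.1 in control. All 9 treated libraries lay below the lowest control, and control 1 was close to controls 2 and 3 for this gene. The log2 change was -0.49 ± 0.15 in low NaHCO3 (SE, limma adjusted p = 0.0203), against -0.47 in 15% CO2 (adjusted p = 0.183) and -0.39 in lactic acid (adjusted p = 0.166), neither of them called. Psma4 had 152, 144 and 143 TPM in low NaHCO3, against 172, 207 and 215 in control. The 3 treated values were the lowest of all 12 libraries, and the change was -0.43 ± 0.10 (adjusted p = 0.0042). Psma7, the subunit that several regulatory proteins are known to bind, had 125, 147 and 104 TPM in 15% CO2, 142, 142 and 97.8 in lactic acid and 172, 170.4 and 175 in low NaHCO3, against 125, 169 and 165 in control. The low NaHCO3 values were the highest of the 12 but only just above controls 2 and 3, and the change of 0.18 ± 0.17 was not called (adjusted p = 0.382). Psma1, Psma3, Psma5 and Psma6 lay between 63.4 TPM (Psma3 in lactic acid 3) and 543 TPM (Psma6 in control 2) and passed in no comparison with control in either fit. Transcripts of other genes share 35.2% of the 75-base stretches of Psma5 and 14.4% of those of Psma3, so reads of these may be divided between genes.

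The beta ring carries the active sites, and its catalytic subunits are Psmb5 with chymotrypsin-like, Psmb6 with caspase-like and Psmb7 with trypsin-like activity. Psmb5 had 71.6, 108 and 55.4 TPM in 15% CO2, 103, 92.6 and 49.8 in lactic acid and 86.0, 88.7 and 65.6 in low NaHCO3, against 105, 132 and 122 in control. Only 15% CO2 2, at 108 TPM, reached above the lowest control, and the spread within the 15% CO2 and lactic acid groups was wide. Its log2 change was the lowest of the 31 in 15% CO2, at -0.65 ± 0.28 (adjusted p = 0.299), and it was -0.60 ± 0.28 in lactic acid (adjusted p = 0.227) and -0.58 ± 0.28 in low NaHCO3 (adjusted p = 0.101), with none called in either fit. Of the 75-base stretches in its annotated transcripts, 36.8% also occur in transcripts of other genes, so its level is uncertain.

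Psmb6 had 144, 166 and 114 TPM in 15% CO2, 174, 169 and 92.5 in lactic acid and 137, 142 and 137 in low NaHCO3, against 166, 225 and 206 in control. The low NaHCO3 libraries lay below all controls, whereas 15% CO2 2 and lactic acid 1 and 2 lay above control 1. In low NaHCO3 the change was -0.51 ± 0.23 (adjusted p = 0.076), and without control 1 it was -0.63 ± 0.23 and was called (adjusted p = 0.0341). Psmb7 had 75.7, 73.7 and 65.5 TPM in 15% CO2, 89.5, 90.2 and 59.2 in lactic acid and 66.5, 74.2 and 75.3 in low NaHCO3, against 76.1, 101 and 105 in control. The lactic acid libraries straddled control 1, while every 15% CO2 and low NaHCO3 library was below it, by less than 1 TPM at the closest. Its change in low NaHCO3 was -0.36 ± 0.17 (adjusted p = 0.0836), and -0.51 ± 0.16 without control 1 (adjusted p = 0.0141).

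Psmb2, a beta subunit without an active site, was the only beta subunit called with all 12 libraries. It had 272, 239 and 254 TPM in 15% CO2, 278, 285 and 268 in lactic acid and 196, 184 and 179 in low NaHCO3, against 219, 288 and 289.5 in control. The 3 low NaHCO3 libraries were the lowest of the 12, while 15% CO2 and lactic acid lay between control 1 and the other controls. The change in low NaHCO3 was -0.50 ± 0.11 (adjusted p = 0.00306), and -0.63 ± 0.07 without control 1 (adjusted p = 2.28e-05). Psmb1, Psmb3 and Psmb4, also without active sites, lay between 74.1 TPM (Psmb3 in lactic acid 3) and 387 TPM (Psmb4 in low NaHCO3 1) and passed in no comparison with control in either fit.

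The ATPase ring uses ATP to unfold substrates and to open the gate of the core. Of its 6 members, 2 fell in low NaHCO3 with all 12 libraries, Psmc4 and Psmc5, beside 35.0% of all genes called lower. The same 2 were the only members that fell in lactic acid, beside 1.52% of all genes, and those calls were near the threshold. Psmc4 had 161, 174 and 144 TPM in 15% CO2, 161, 158 and 130.1 in lactic acid and 103, 104 and 109.7 in low NaHCO3, against 179, 236 and 222 in control. Every treated library lay below every control, and the low NaHCO3 libraries lay below all the others. The group means were 159.7 ± 14.7, 149.7 ± 17.0 and 105 ± 3.78 TPM in the treated groups in that order, against 212 ± 29.2 TPM in control (SD, n = 3 each). The log2 change was -0.99 ± 0.12 in low NaHCO3 (adjusted p = 6.1e-05), a fold of 0.502, and -0.50 ± 0.12 in lactic acid (adjusted p = 0.0464). In 15% CO2 it was -0.40 ± 0.12 (adjusted p = 0.147), and without control 1 it was -0.52 ± 0.10 and was called (adjusted p = 0.0149). The fall in low NaHCO3 was larger than in the other treatments, with a log2 difference of 0.59 ± 0.12 for 15% CO2 against low NaHCO3 (adjusted p = 0.00197) and of 0.50 ± 0.12 for lactic acid against low NaHCO3 (adjusted p = 0.00603).

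Psmc5 had 279.6, 319 and 264 TPM in 15% CO2, 300.4, 301 and 211 in lactic acid and 273, 267 and 305 in low NaHCO3, against 380.2, 414 and 399 in control. The 3 treated groups overlapped one another, and all 9 of their libraries lay below the lowest control. Its changes were -0.57 ± 0.14 in lactic acid (adjusted p = 0.0451), -0.50 ± 0.14 in low NaHCO3 (adjusted p = 0.0105) and -0.47 ± 0.14 in 15% CO2, which was not called (adjusted p = 0.138). Psmc2 and Psmc3 fell in low NaHCO3 only without control 1, by 0.44 (adjusted p = 0.0203) and 0.35 (adjusted p = 0.0105) on the log2 scale. Psmc6 had 348, 343 and 347 TPM in low NaHCO3, against 225, 325 and 313 in control. All 3 low NaHCO3 values were above all controls, and the change of 0.28 ± 0.12 was not called (adjusted p = 0.0718). Psmc1 had 466 ± 11.1 TPM in low NaHCO3 and 489 ± 60.1 TPM in control (SD, n = 3 each), a change of -0.06 (adjusted p = 0.642).

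In the non-ATPase base, Psmd1 and Psmd2 are scaffolds and Psmd4 is a receptor for ubiquitin chains. Psmd4 had 202, 209 and 179.6 TPM in 15% CO2, 245, 238 and 149 in lactic acid and 292, 283 and 299 in low NaHCO3, against 191, 265 and 249.8 in control. Every low NaHCO3 library was above every other library, but the change against control of 0.32 ± 0.18 was not called (adjusted p = 0.151), nor was 0.18 without control 1 (adjusted p = 0.381). It was lower in 15% CO2 than in low NaHCO3 by 0.57 (adjusted p = 0.0217) and lower in lactic acid than in low NaHCO3 by 0.50 (adjusted p = 0.0397) on the log2 scale. Psmd1 passed against control only without control 1, at -0.32 in 15% CO2 (adjusted p = 0.0349) and -0.29 in low NaHCO3 (adjusted p = 0.00735). Psmd2, which also binds ubiquitin-like shuttle proteins, lay between 272 TPM (lactic acid 3) and 449.6 TPM (low NaHCO3 1) and passed in no comparison with control in either fit.

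The lid held both members that rose in low NaHCO3 and the member that fell furthest. Of its 8 members, 2 rose and 3 fell there with all 12 libraries, beside 19.8% and 35.0% of all genes. Psmd8, the subunit known to join the lid last during assembly, had 267, 244 and 252 TPM in 15% CO2, 331, 345 and 317 in lactic acid and 563, 528 and 598 in low NaHCO3, against 200.3, 272 and 285 in control. The low NaHCO3 libraries stood far above all others, the lactic acid libraries lay above every control, and the 15% CO2 libraries lay within the control range. The change in low NaHCO3 was 1.17 ± 0.12 (adjusted p = 2.45e-05), a fold of 2.25, and without control 1 it was 1.01 ± 0.08 (adjusted p = 1.19e-06), a fold of 2.01. In lactic acid it was 0.40 ± 0.12 (adjusted p = 0.0914), and without control 1 0.25 ± 0.08 (adjusted p = 0.0521), neither of them called. In 15% CO2 it was 0.03 ± 0.12 (adjusted p = 0.928), the highest change of the 31 there and not called. By mean TPM Psmd8 ranked 8th of the 31 in 15% CO2, 4th in lactic acid and 1st in low NaHCO3, against 10th in control.

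Psmd11, a scaffold that braces the lid against base and core, had 91.3, 82.6 and 89.6 TPM in 15% CO2, 106, 109 and 100.4 in lactic acid and 153, 140.1 and 162 in low NaHCO3, against 70.5, 101 and 103 in control. The low NaHCO3 libraries were the highest of the 12, and lactic acid overlapped controls 2 and 3. The change in low NaHCO3 was 0.74 ± 0.13 (adjusted p = 0.000787), a fold of 1.67, and 0.56 ± 0.08 without control 1 (adjusted p = 7.87e-05). It was -0.04 in 15% CO2 (adjusted p = 0.893) and 0.22 in lactic acid (adjusted p = 0.341), neither of them called. Other genes' transcripts hold 4.15% of its 75-base stretches, among them those of 7 genes in the expression table, and none of those of Psmd8, Psmd6 and Psmc4.

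Psmd6, another scaffold of the lid, had 102, 130.2 and 92.6 TPM in 15% CO2, 116, 117 and 75.03 in lactic acid and 65.3, 56.3 and 66.1 in low NaHCO3, against 129.6, 166 and 162 in control. The low NaHCO3 libraries were the lowest of the 12, lactic acid also lay below every control, and 15% CO2 2 was level with control 1. The change in low NaHCO3 was -1.27 ± 0.18 (adjusted p = 0.000198), a fold of 0.416, and -1.38 ± 0.19 without control 1 (adjusted p = 7.13e-05). In lactic acid it was -0.59 ± 0.18 (adjusted p = 0.0948), and -0.70 ± 0.19 without control 1, where it was called (adjusted p = 0.0294). In 15% CO2 it was -0.50 ± 0.18 (adjusted p = 0.234).

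Psmd14 is the deubiquitinase of the lid and Psmd7 its partner subunit. Psmd14 had 144, 182 and 140.4 TPM in 15% CO2, 190.3, 189 and 139.7 in lactic acid and 223, 209 and 225 in low NaHCO3, against 153, 209 and 205 in control. The low NaHCO3 and control libraries overlapped, and the change of 0.22 ± 0.16 was not called (adjusted p = 0.245). Psmd7 had 183, 178 and 171 TPM in low NaHCO3, against 206, 248 and 250.4 in control. The low NaHCO3 values were below all controls, with a change of -0.40 ± 0.09 (adjusted p = 0.00292). The scaffold subunit Psmd12 had 157, 152 and 154 TPM in low NaHCO3, against 175, 228 and 218 in control, and fell by 0.41 (log2, adjusted p = 0.00974). Psmd3 and Psmd13 passed against control only without control 1, Psmd3 in lactic acid (-0.33, adjusted p = 0.022) and low NaHCO3 (-0.27, adjusted p = 0.013) and Psmd13 in 15% CO2 (-0.43, adjusted p = 0.046) and lactic acid (-0.48, adjusted p = 0.019).

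**Figure D4:**
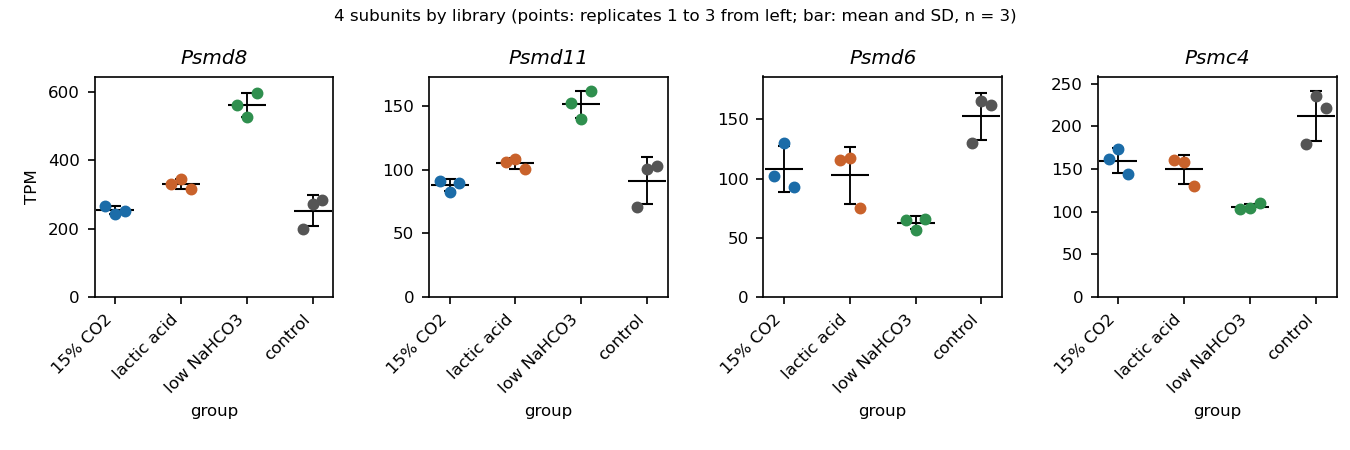
TPM of Psmd8, Psmd11, Psmd6 and Psmc4 in each library, with points for replicates 1 to 3 from left to right and bars for the mean and SD (n = 3). Low NaHCO3 holds the 3 highest values of Psmd8 (528 to 598 TPM) and Psmd11 and the 3 lowest of Psmd6 (56.3 to 66.1 TPM) and Psmc4.

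Ratios between subunits within a library do not depend on how libraries are scaled. The ratio of Psmd8 to Psmd6 was 2.62, 1.87 and 2.72 in 15% CO2, 2.86, 2.94 and 4.22 in lactic acid and 8.63, 9.39 and 9.04 in low NaHCO3, against 1.55, 1.64 and 1.76 in control. Control 1 did not stand apart from controls 2 and 3 in this ratio, every treated library lay above every control, and the low NaHCO3 libraries lay far above the rest. The mean ratio was 2.41 ± 0.464 in 15% CO2, 3.34 ± 0.763 in lactic acid and 9.02 ± 0.384 in low NaHCO3, against 1.65 ± 0.109 in control (SD, n = 3 each). The ratio of the ATPases Psmc6 and Psmc4 averaged 1.71 in 15% CO2, 1.95 in lactic acid and 3.29 in low NaHCO3, against 1.35 in control. The ratio of the subunits that rose, Psmd8 to Psmd11, moved less, with means of 2.90, 3.15 and 3.72 in the treated groups in that order, against 2.76 in control. These pairs were chosen after their values were seen, so no test is given.

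Library by library, the 3 low NaHCO3 values lay above all 9 other libraries for 6 members (Psma7, Psmb1, Psmc6, Psmd4, Psmd8 and Psmd11) and below all of them for 6 (Psma4, Psmb2, Psmc4, Psmd6, Psmd7 and Psmd12). Among all genes tested the shares were 18.2% above and 32.3% below. The other 19 members overlapped.

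Between the treatments, 15% CO2 against lactic acid gave no member called with all 12 libraries by limma, with 1 at an unadjusted p under 0.05 and a background of 0.17% of genes higher and 0.0325% lower. Without control 1, Psmd8 was lower in 15% CO2 by 0.38 on the log2 scale (adjusted p = 0.0139), against a background of 2.96% higher and 1.64% lower. In 15% CO2 against low NaHCO3, 4 members were higher and 7 lower, beside a background of 33.7% and 17.5%. The higher ones were Psmb2 (0.45), Psmc4, Psmd6 (0.77) and Psmd7 (0.32). The lower ones were Psma3, Psma7, Psmc6, Psmd4, Psmd8 (-1.14), Psmd11 (-0.78) and Psmd14 (-0.50).

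In lactic acid against low NaHCO3, 4 members were higher and 5 lower, beside a background of 30.8% and 17.8%. Psmb2, Psmc4, Psmd6 and Psmd7 were higher, and Psma3, Psma7, Psmd4, Psmd8 (-0.76, adjusted p = 0.000517) and Psmd11 (-0.52, adjusted p = 0.00742) were lower. The split depended on scaling. Under median-of-ratios scaling it was 2 higher and 15 lower for 15% CO2 against low NaHCO3 (background 24.7% and 28.2%) and 3 and 13 for lactic acid against low NaHCO3 (23.2% and 27.1%). Under quantile normalization it was 6 and 6 for 15% CO2 against low NaHCO3 (21.6% and 21.2%) and 6 and 2 for lactic acid against low NaHCO3 (20.5% and 20.1%). Without mitochondrially encoded genes it was 6 and 5 for 15% CO2 against low NaHCO3 (42.5% and 12.7%) and 7 and 3 for lactic acid against low NaHCO3 (39.7% and 12.9%). Without control 1, 15% CO2 against low NaHCO3 gave 6 higher and 10 lower (background 45.5% and 23.8%), and lactic acid against low NaHCO3 gave 6 and 9 (42.9% and 24.4%).

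Across all 4 groups at once, limma's moderated F test called 9 of the 31 members different, beside 53.5% of all genes, and 22 of the 31 without control 1, beside 74.4%.

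Promoter sequence was set beside the members that moved furthest in low NaHCO3, as they moved in opposite directions. The sequences are the 250 bases before the annotated start, from RefSeq on build GRCm38.p6, written 5′ to 3′ on the gene's strand, and 25 of the 31 genes had an entry. Capitals mark matches, on either strand, to the 5 motifs named after the sequences. The genes that rose are shown first, Psmd8 (chr7:29180674-29180923, minus strand) and Psmd11 (chr11:80428365-80428614, plus strand).
Psmd8: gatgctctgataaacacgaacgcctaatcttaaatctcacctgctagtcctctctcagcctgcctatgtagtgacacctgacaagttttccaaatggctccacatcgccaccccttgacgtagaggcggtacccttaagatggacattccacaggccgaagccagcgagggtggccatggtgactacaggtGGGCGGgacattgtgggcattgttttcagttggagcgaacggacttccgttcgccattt
Psmd11: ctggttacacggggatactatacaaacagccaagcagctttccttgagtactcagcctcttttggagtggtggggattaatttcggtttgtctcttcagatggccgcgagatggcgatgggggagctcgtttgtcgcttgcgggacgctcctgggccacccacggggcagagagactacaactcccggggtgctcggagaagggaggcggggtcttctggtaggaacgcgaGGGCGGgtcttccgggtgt
The genes that fell are Psmd6 (chr14:14120946-14121195, minus strand) and Psmc4 (chr7:28050093-28050342, minus strand).
Psmd6: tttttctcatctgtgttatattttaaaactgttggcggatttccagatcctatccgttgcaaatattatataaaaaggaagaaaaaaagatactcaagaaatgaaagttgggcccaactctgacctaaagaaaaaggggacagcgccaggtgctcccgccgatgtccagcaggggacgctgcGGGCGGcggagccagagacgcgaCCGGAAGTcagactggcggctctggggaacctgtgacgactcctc
Psmc4: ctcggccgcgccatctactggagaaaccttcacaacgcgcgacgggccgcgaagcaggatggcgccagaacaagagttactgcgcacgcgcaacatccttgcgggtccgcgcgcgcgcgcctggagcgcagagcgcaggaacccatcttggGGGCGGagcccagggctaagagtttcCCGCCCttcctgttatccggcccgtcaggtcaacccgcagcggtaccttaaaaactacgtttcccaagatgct
Psmb5 (chr14:54617996-54618245, minus strand) is shown as a catalytic subunit with an antioxidant response element match.
Psmb5: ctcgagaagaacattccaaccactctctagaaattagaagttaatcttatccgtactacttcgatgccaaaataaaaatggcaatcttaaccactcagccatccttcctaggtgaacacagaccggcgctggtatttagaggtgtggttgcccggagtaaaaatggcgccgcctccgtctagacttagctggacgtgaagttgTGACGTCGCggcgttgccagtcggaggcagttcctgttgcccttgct
The GC box, GGGCGG, was found in all 4 of these genes, in Psmd8 and Psmd11, which rose, and in Psmd6 and Psmc4, which fell. It was found in 14 of the 25 member genes and in 32.7% of 32851 promoters of the same length. The ETS site, CCGGAAGT, was found in Psmd6, Psmc1, Psmc2 and Psmd12, and in 2.88% of all promoters. The core of the antioxidant response element, TGACNNNGC, was found in Psmb5, Psmb6, Psmc6 and Psmd12, and in 10.2% of all promoters. Its form that resembles an AP-1 site, TGANTCAGC, was found in none of the 25 and in 1.02% of all promoters, and the CCAAT box in 10 of the 25 and in 33.9%. A stretch can match both forms of the antioxidant response element. The 25 genes have 27 promoters in all, and a gene was counted where any of its promoters matched. The shares of all promoters are per promoter and not matched for expression or base content, and enrichment was not tested. For 24 of the 27, bases after the start were found in the gene's transcripts. A match is a description of the letters and not a binding site, and its bearing on the changes was not tested.

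Proteasome partners outside the 31 genes were followed as lists. In 15% CO2 and in lactic acid no gene of any partner list was called against control with all 12 libraries. Of all genes tested, 1.28% were then called higher and 0.0649% lower in 15% CO2, and 2.47% and 1.52% in lactic acid. Without control 1 none was called in 15% CO2, and in lactic acid Pomp (-0.70), Adrm1 (-0.43), Vcp (-0.42), Zfand2a (-0.37) and Sqstm1 (-0.35) were lower. The background without control 1 was 5.82% higher and 1.56% lower in 15% CO2, and 9.05% and 7.08% in lactic acid. The immune beta subunit Psmb8 stayed at or below 1.85 TPM and was not tested, and Psmb9 had 2.69, 3.76 and 2.77 TPM in low NaHCO3, against 1.43, 0.299 and 1.28 in control. The change of Psmb9 was 1.07 ± 0.25 (adjusted p = 0.00438) from this low level. Psmb10, the remaining immune beta subunit, had 12.6, 9.79 and 7.99 TPM in lactic acid and 21.0, 26.1 and 19.9 in low NaHCO3, against 22.1, 16.2 and 17.2 in control, and passed against control in neither. Between treatments it was lower in lactic acid than in low NaHCO3 (-1.08, adjusted p = 0.00291). The cap genes Psme1 (-0.21, adjusted p = 0.217) and Psme2 (0.36, adjusted p = 0.207) were not called in low NaHCO3. Of the other activators and inhibitor, Psme3 (-0.56, adjusted p = 0.000413) and Psme4 (-0.38, adjusted p = 0.00968), 2 of 3, fell in low NaHCO3, beside 35.0% of all genes.

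Of 8 assembly chaperones, 3 fell in low NaHCO3 and none rose, a share near the 35.0% of all genes called lower. They were Psmg1 (-0.58, adjusted p = 0.041), Psmg3 (-0.38, adjusted p = 0.0389) and Psmd5 (-0.44, adjusted p = 0.00487), the last a chaperone of the base. Pomp, which guides assembly of the core, had 35.6, 49.9 and 33.3 TPM in 15% CO2, 44.8, 41.1 and 25.7 in lactic acid and 73.9, 68.8 and 73.9 in low NaHCO3, against 60.8, 61.2 and 57.4 in control. The 15% CO2 and lactic acid libraries lay below all controls and the low NaHCO3 libraries above them. Against control its change was -0.60 ± 0.19 in 15% CO2 (adjusted p = 0.168), -0.71 ± 0.19 in lactic acid (adjusted p = 0.0645) and 0.27 ± 0.19 in low NaHCO3 (adjusted p = 0.253), none called. It was lower in 15% CO2 than in low NaHCO3 (-0.87, adjusted p = 0.0031) and lower in lactic acid than in low NaHCO3 (-0.98, adjusted p = 0.00174).

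Another list held NRF1, genes linked to it, and the genes Zfand5 and Akirin2. In low NaHCO3 it had 5 of 9 genes higher and 1 lower, beside 19.8% of all genes called higher and 35.0% lower. Nfe2l1 had 176, 182 and 165 TPM in 15% CO2, 197, 198 and 176 in lactic acid and 214, 212 and 206 in low NaHCO3, against 177, 160.2 and 169 in control. Every low NaHCO3 library was above every other, and the change was 0.32 ± 0.08 (adjusted p = 0.00519). The small Maf partners Maff (1.63, adjusted p = 0.000215) and Mafk (1.52, adjusted p = 7.03e-06) rose, as did the proteasome-binding zinc finger gene Zfand5 (0.86, adjusted p = 6.28e-05) and Akirin2 (0.85, adjusted p = 0.000276), known in human cells for nuclear import of proteasomes. Mafg, also a small Maf gene of the list, was not called. Ddi2, the protease known to cleave NRF1 into its active form, fell by 0.70 (log2, adjusted p = 9.47e-05). Of the 31 subunit genes, 2 were called higher and 8 lower in the same comparison, beside the same 19.8% and 35.0% of all genes. Only mRNA was measured, and a link between the genes of this list and the subunit levels was not tested.

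Of the 6 further proteasome-bound proteins, the deubiquitinases Uchl5 (0.52, adjusted p = 0.0037) and Usp14 (0.38, adjusted p = 0.027) rose in low NaHCO3 and the ligase Ube3c fell (-0.45, adjusted p = 0.00316). Of all genes tested, 19.8% were called higher and 35.0% lower. Without control 1, 1 of the 6 was higher (Uchl5) and 2 were lower (Adrm1 and Ube3c), beside 22.7% and 40.9% of all genes. Usp14 was then not called (adjusted p = 0.0612). Of 18 genes of ubiquitin supply and delivery, 6 rose and 4 fell, beside 19.8% and 35.0% of all genes, and without control 1, 5 rose and 4 fell, beside 22.7% and 40.9%. Zfand2a, a zinc finger gene of the proteasome stress response, had 44.7, 43.0 and 38.3 TPM in 15% CO2, 42.5, 46.1 and 36.1 in lactic acid and 149.5, 133 and 157 in low NaHCO3, against 53.7, 54.3 and 53.3 in control. The low NaHCO3 libraries stood far above all others, with a change of 1.42 ± 0.10 (adjusted p = 2.2e-06). The ubiquitin-activating enzyme Uba6 rose (0.87, adjusted p = 3.45e-05), and the ubiquitin fusion gene Rps27a rose with all 12 libraries (0.82, adjusted p = 0.0432) but was not called without control 1 (adjusted p = 0.109). The tissue-restricted subunits Psma8 and Psmb11 were at or below 0.211 TPM in all libraries.

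**Figure D5:**
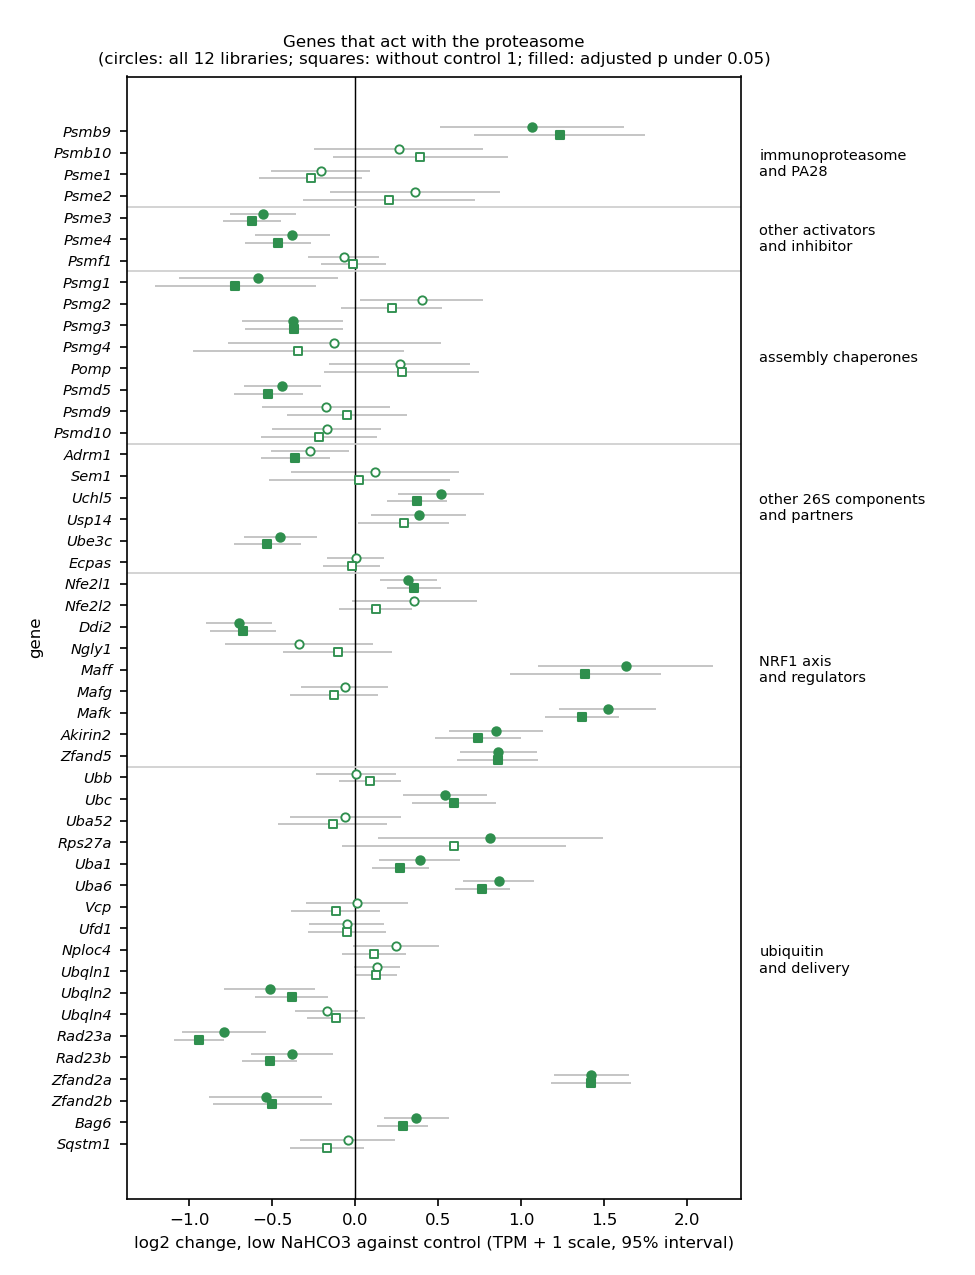
Log2 change in low NaHCO3 against control, on the log2(TPM + 1) scale with 95% intervals, for the partner genes grouped by list. Circles use all 12 libraries and squares leave out control 1, filled where the adjusted p is under 0.05; Maff (1.63), Mafk (1.52) and Zfand2a (1.42) are among the highest and Ddi2 (-0.70) among the lowest.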

How the data were processed

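The authors deposited 1 table of TPM for the 12 libraries (21959 genes), and TPM keeps no read depth, so no counting interval is given. fastp 0.22.0 (a read trimmer), HISAT2 2.1.0 (an aligner) and build GRCm39 were used, per the submitters' processing notes. No source used here states the quantifier, annotation or strand setting. From the deposited TPM, log2(TPM + 1) values were fitted with limma 3.58.1 in R 4.3.3 (4 group means, empirical Bayes with a mean trend, 6 contrasts and the moderated F test) over the 12326 genes at 1 TPM or more in at least 3 libraries, or 12226 genes without control 1. P-values were adjusted by Benjamini-Hochberg over all genes tested, with a threshold of 0.05. The log2(TPM + 1) scale understates changes of low genes. The fit was tested on simulated libraries with independent normal spread, estimated without control 1, and with changes placed only in low NaHCO3. That simulation did not imitate control 1 or shifts of a whole library, so it does not test the calls under these. An SE or interval comes from the limma fit, and an SD from the TPM of 3 libraries.

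The 31 members and all lists were chosen with earlier results of these data known. Named by rule were a panel (Psmb5, Psmb6, Psmb7, Psma7, Psmc4, Psmd4, Psmd11 and Psmd14), the 3 highest and 3 lowest called members per treatment (or, with none called, the highest and lowest), every member called in either fit, some fixed partner genes and up to 3 called genes with the largest change per partner list. Psmc1, Psmc6, Akirin2 and Ddi2 were added after their values were seen. Paaf1, a listed chaperone, had no matching symbol. Promoters were matched to RefSeq by symbol on GRCm38.p6, whose coordinates are not those of the expression data. Shared 75-base stretches were counted in GENCODE M21 transcripts. Alternatives changed the pseudocount, filter, scaling, samples and covariates and left out libraries.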

Additional observations from a re-analysis of the deposited data

How the results depend on the processing

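Each of the 32 member calls made with all 12 libraries, over the 6 comparisons, kept its direction in all 41 alternatives. The low NaHCO3 calls of Psmd8, Psmd11, Psmd6, Psmc4, Psmb2, Psma4 and Psmd7 against control were made in all 41, with log2 changes of 0.87 to 1.35 for Psmd8, 0.47 to 0.92 for Psmd11, -1.47 to -1.09 for Psmd6, -1.20 to -0.82 for Psmc4 and -0.72 to -0.32 for Psmb2. Those of Psmc5, Psmd12 and Psma2 were made in 40, 40 and 33, and the lactic acid calls of Psmc4 and Psmc5 in 25 and 23. Some changes that were not called with all 12 libraries were called with the opposite sign under an alternative. In low NaHCO3 against control these were Psmd13 at -0.21 without control 1 and mitochondrially encoded genes, and at -0.15 with removal of the length trend and without control 1, 15% CO2 3 and lactic acid 3. In 15% CO2 against low NaHCO3 they were Psmd3 at -0.21 under median-of-ratios scaling and -0.20 also without control 1, Psmc3 at 0.16 under quantile normalization without control 1, and Psmd1 at 0.14 without control 1 and mitochondrially encoded genes. In lactic acid against low NaHCO3 they were Psmc1 at 0.17 under quantile normalization without control 1, and, without control 1, 15% CO2 3 and lactic acid 3, Psmb3 at 0.22, or with removal of the length trend Psmb3 at 0.28 and Psma6 at 0.14.

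The counts of members called are set beside the share of all genes called in either direction under the same setting. In lactic acid against control, 2 with all 12 libraries, the count was 0 with no filter (1.8% of all genes), with only the groups compared (0%) or with the replicate block (2.88%), 4 with quantile normalization (5.68%) and 5 without mitochondrially encoded genes (7.29%). In 15% CO2 against control it was 1 without mitochondrially encoded genes (2.38%). In low NaHCO3 against control it was 16 with quantile normalization (46.9%) and 18 without mitochondrially encoded genes (58.1%), against 10 with all 12 libraries (54.8%). Median-of-ratios scaling gave 17 members (52.9%) and a median change of -0.32 in 15% CO2 against low NaHCO3, 16 in lactic acid against low NaHCO3 (50.3%) and 18 by the F test (56.1%), which called 16 without mitochondrially encoded genes (58.9%). With only the groups compared, 15% CO2 against low NaHCO3 gave 18 (69.6%) and lactic acid against low NaHCO3 gave 15 (64.7%). The cause of these shifts was not tested.

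With control 1 left out, a second change gave other counts, in 15% CO2, lactic acid and low NaHCO3 against control in that order. Median-of-ratios scaling gave 19, 12 and 12 members called (11.1%, 22.2% and 65.2% of all genes), and 30 by the F test (78.1%). Quantile normalization gave 11, 11 and 20 (9.26%, 22% and 60.6%), a median of -0.38 in low NaHCO3, and 24 by the F test (72.9%). Leaving out mitochondrially encoded genes gave 16, 14 and 22 (11.5%, 20.6% and 66.4%), and 26 by the F test (79.1%). Only the groups compared gave 15, 1 and 23 (7.93%, 8.41% and 71.2%). Removal of the trend with transcript length gave 5, 9 and 19 (7.19%, 15.8% and 63.8%), and 22 by the F test (74.2%), or 29 with 15% CO2 3 and lactic acid 3 also left out (80.1%). The replicate block gave 9, 12 and 19 (7.07%, 18.7% and 64.2%), and 31 by the F test (77.1%).

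Settings that left out 1 or more libraries, alone or with another change, gave 0 to 25 members called in 15% CO2 (0.244% to 16.2% of all genes), 0 to 14 in lactic acid (0.311% to 22.2%) and 8 to 23 in low NaHCO3 (44.8% to 71.4%), each against control. They gave 0 to 5 in 15% CO2 against lactic acid (0.0489% to 7.48%), 6 to 21 in 15% CO2 against low NaHCO3 (42.0% to 73.8%), 5 to 20 in lactic acid against low NaHCO3 (38.4% to 70.6%) and 6 to 31 by the F test (40.6% to 80.3%). The member medians ran from -0.53 to -0.20 in 15% CO2, -0.49 to -0.075 in lactic acid and -0.40 to -0.10 in low NaHCO3 against control. Between treatments they ran from -0.20 to 0.06, from -0.31 to 0.06 and from -0.24 to 0.09 in the order above. The settings that left out both 15% CO2 3 and lactic acid 3, or control 1 together with mitochondrially encoded genes, were chosen after seeing the data. The labels do not say whether replicate numbers pair the libraries. After each group's mean was subtracted, same-numbered libraries correlated at -0.14 to 0.46, with 3 of 18 pairs over 0.1. Differently numbered ones correlated at -0.46 to 0.38, with 5 of 36 pairs over 0.1. Control 1 stood apart and affects every pair that holds a control. Among the 9 treated libraries alone, same-numbered pairs ran from -0.12 to 0.46, with 2 of 9 over 0.1. Differently numbered ones ran from -0.46 to 0.38, with 2 of 18 over 0.1. The ranges overlap in both sets, so these values do not decide the question. With the replicate block and all 12 libraries, 0 members were called in 15% CO2 (0.584% of all genes), 0 in lactic acid (2.88%) and 11 in low NaHCO3 (55.0%). With 3 libraries a group and unknown depth, a change of a member that missed the threshold is not shown to be absent.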

Other observations

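Set against the median subunit of its own library, which cancels any scaling of the library, each member has a place in the complex's own mRNA profile. On this log2 scale Psmd8 averaged 1.84 in low NaHCO3 and 0.32 in control, Psmd11 averaged -0.05 in low NaHCO3 and -1.14 in control, and Psmd4 averaged 0.89 in low NaHCO3 and 0.22 in control. Psmd6 averaged -1.32 in low NaHCO3 and -0.40 in control, and Psmc4 averaged -0.57 in low NaHCO3 and 0.08 in control. This is a description, with no test.

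Some subunit genes share sequence with transcripts of other annotated genes. Of the 75-base stretches in annotated transcripts, 36.8% of those of Psmb5, 35.2% of Psma5, 14.4% of Psma3, 10.3% of Psmb3, 9.77% of Psmd2 and 6.45% of Psmc1 also occur in transcripts of other genes, and 4.15% of those of Psmd11. Of these, Psmd11 shares stretches with 7 genes of the expression table, the most abundant of them at up to 872 TPM, and the others with none in it. No such stretch was found for Psmd8, Psmd6, Psmc4, Psmb2 and Psmc5.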
